A study of Mus musculus with 11 samples.

Results

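The 10 chemokine genes that draw monocytes and lymphocytes (Ccl2, Ccl3, Ccl4, Ccl5, Ccl7, Ccl20, Cx3cl1, Cxcl10, Cxcl12 and Cxcl16) were followed across sorted mouse liver cells, to ask which of them the biliary lineage expressed and which belonged to the remaining cells. They were chosen by gene symbol, and all 10 of 10 were among the 23185 genes measured with 1 symbol. YFP, a yellow fluorescent protein, marked the biliary lineage. YFP+ cells came from untreated mice (UTR, 2 arrays), from mice fed CDE, a choline-deficient chow supplemented with ethionine (3 arrays), and from mice fed DDC, or 3,5-diethoxycarbonyl-1,4-dihydrocollidine, for 5 weeks (3 arrays). YFP- cells, the other sorted fraction, came from untreated mice (3 arrays). Every array carries RNA of live, enzymatically dispersed cells that were prepared as non-parenchymal and passed a sorter. The labels state 4 mice for DDC against 3 arrays. They do not name the mouse line, the promoter that drives the label, the age of the mice or the duration of CDE feeding, nor whether each array had animals of its own. The p-values therefore describe the scatter among these arrays, part of which may be technical.

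Chemokines are small secreted proteins that bind heparan sulphate on cell surfaces and steer leukocytes carrying the matching G protein-coupled receptor. CC and CXC ligands are released directly, whereas Cx3cl1 and Cxcl16 are made as membrane-bound proteins with a mucin stalk and are shed by metalloproteinases. In the liver, Kupffer cells, endothelium, stellate cells and reactive bile duct cells are all known sources, and Ccl2 and its receptor Ccr2 are known for bringing blood monocytes into injured tissue. CDE feeding injures hepatocytes with steatosis, DDC feeding causes cholestatic injury, and bile duct-like cells expand in both.

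Values are log2 expression levels, and a difference of 1 is a doubling if the base is 2, which was inferred from the range of the values. Array medians ran from 5.63 to 5.76, and the group means of the 10 genes were all above the floor used here for dim genes (4.33, the mean of the arrays' 25th percentiles). All 12 measured biliary markers were higher in YFP+ UTR than in YFP- past the threshold. Their mean level was 9.99 to 10.39 on the 8 YFP+ arrays. The YFP- arrays did not hold one mixture of cells. YFP- replicate 1 carried biliary markers (mean 7.92, against 4.85 and 4.85 on replicates 2 and 3) and the most stellate and endothelial RNA. YFP- replicate 2 carried T and NK lymphocyte markers (10.17, against 4.84 and 5.15) and monocyte and neutrophil markers (9.62, against 6.94 and 6.41). YFP- replicate 3 carried the most macrophage RNA (11.58, against 8.79 and 8.58). Hepatocyte markers were not absent, with list means of 7.33 to 8.16 on YFP+ arrays and 6.86 to 8.10 on YFP- arrays. Of these markers, Alb was at 11.70 to 12.58 on the YFP+ arrays. The source of this RNA was not tested. In bulk samples such as these, fewer cells of a type and less RNA per cell cannot be told apart.

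Promoter sequence of 5 of the 10 genes (Ccl3, Ccl20, Cx3cl1, Cxcl10 and Cxcl12) was found in the RefSeq promoter table of build GRCm38.p6, which spans 250 bases before to 50 bases after each gene's start. Ccl2, Ccl4, Ccl5, Ccl7 and Cxcl16 were not matched. The sequences below are shown because Ccl20 and Cxcl10 ended up on opposite sides of the sort, although both are textbook targets of NF-kB, the transcription factor of inflammatory signalling. Each line is a window of 30 bases, read 5′ to 3′ on the strand of the gene, with the match in capitals. The first window lies at chr1:83116676-83116705 on the plus strand and begins its match 80 bases before the start of Ccl20, a gene of chromosome 1. The Cxcl10 windows lie on the minus strand at chr5:92349028-92349057, chr5:92348973-92349002, chr5:92349083-92349112 and chr5:92348945-92348974, with matches that begin 158, 103, 213 and 74 bases before the start.
Ccl20, NF-kB type: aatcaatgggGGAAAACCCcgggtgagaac
Cxcl10, NF-kB type: gaggggagagGGAAATTCCaagttcatggg
Cxcl10, NF-kB type on the opposite strand: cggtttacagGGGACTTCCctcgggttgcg
Cxcl10, interferon-stimulated response element type: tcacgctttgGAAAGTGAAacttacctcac
Cxcl10, AP-1 type: cggagccttgcTGAGTCAtctccaaagtca
The letters searched, on both strands, were GGAANNNCC for the NF-kB type, GAAANNGAA for the interferon type and TGANTCA for the AP-1 type. They occurred in 18.5%, 8.56% and 7.81% of the 32851 promoter windows of the table, so a match by itself is common. Among the 5 genes, Cx3cl1 also held an NF-kB type match and Ccl3 an interferon type match, and Cxcl12 held none of the 3.

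**Figure D1:**
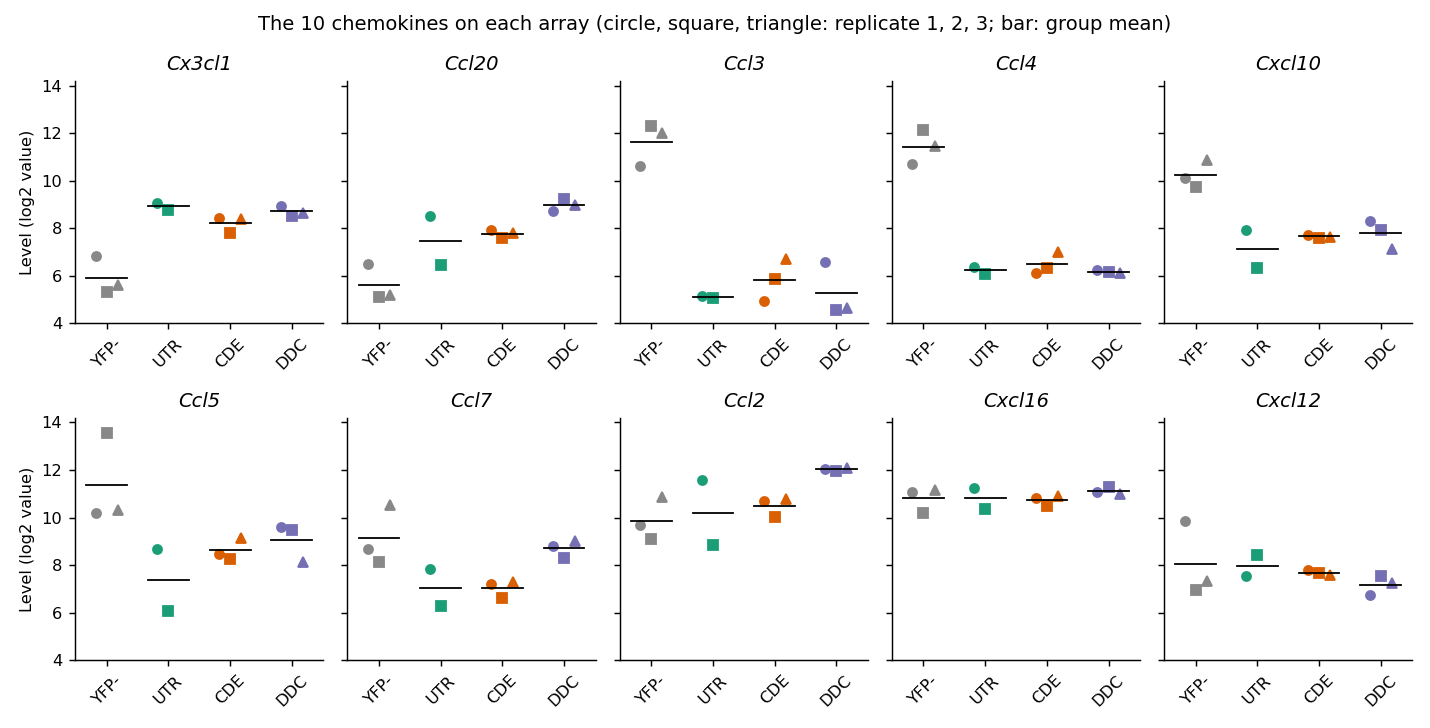
Level (log2 value) of the 10 chemokine genes in YFP- cells and in YFP+ cells of untreated (UTR), CDE-fed and DDC-fed mice. Symbols are single arrays (circle, square and triangle for replicates 1, 2 and 3) and bars are group means. Cx3cl1 was above all YFP- arrays on every YFP+ array, Ccl3, Ccl4, Ccl5 and Cxcl10 were below all YFP- arrays, and Ccl2, Ccl7 and Ccl20 were highest among YFP+ arrays after DDC.

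The first comparison set untreated biliary-lineage cells against untreated YFP- cells. Of the 10 chemokines, 2 were higher in YFP+ UTR past the threshold (Cx3cl1 and Ccl20) and 4 were lower (Ccl3, Ccl4, Ccl5 and Cxcl10), with limma and Benjamini-Hochberg adjustment over all genes at 0.05. Among all genes, 10.4% were called higher and 8.46% lower. The median difference of the 10 was -1.08, against -0.01 over all genes. With the mean of the 3 YFP+ groups in place of UTR, which mixes label and diet, the same 2 were called higher (16.3% of all genes) and Ccl7 joined the 4 called lower (14.3% of all genes). All 8 YFP+ arrays lay above all 3 YFP- arrays for 1 gene, Cx3cl1 (13.9% of all genes), and below them for Ccl3, Ccl4, Ccl5 and Cxcl10 (11.7% of all genes).

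Cx3cl1, or fractalkine, is the membrane-bound ligand of Cx3cr1 on monocytes, macrophages and NK cells. Its level was 9.08 and 8.79 on the 2 UTR arrays. It was 8.45, 7.79 and 8.38 after CDE and 8.94, 8.54 and 8.67 after DDC. In YFP- it was 6.82, 5.34 and 5.61. Every YFP+ array was above every YFP- array, and the highest YFP- value came from the array with biliary markers. UTR exceeded YFP- by 3.01 ± 0.39 (SE), or 8.06-fold (adjusted p = 0.00093). Leaving out that YFP- array did not lower the difference (3.46), and leaving out either of the others gave 2.72 or 2.85. In a fit of the 5 arrays of UTR and YFP- alone the call was just missed (adjusted p = 0.051).

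Ccl20 attracts lymphocytes and dendritic cells through Ccr6. It was at 8.51 and 6.46 on the UTR arrays. After CDE its levels were 7.93, 7.58 and 7.79, and after DDC 8.71, 9.24 and 8.99. YFP- arrays read 6.49, 5.10 and 5.21. UTR replicate 2 thus fell within the YFP- range, at the level of the YFP- array with biliary markers, while all CDE and DDC arrays were above that range. The difference of UTR from YFP- was 1.88 ± 0.57 (SE, 3.68-fold, adjusted p = 0.048). This call held in only 4 of 18 alternatives, and without UTR replicate 1 the difference was 0.86 (adjusted p = 0.36). Without the YFP- array that carries biliary markers it was 2.32 (adjusted p = 0.013), without YFP- replicate 2 or 3 it was 1.63 or 1.69 (adjusted p = 0.10 and 0.11), and leaving out any 1 CDE or DDC array also ended the call (adjusted p from 0.069 to 0.074). The mean of the 3 YFP+ groups exceeded YFP- by 2.48 ± 0.42 (SE, adjusted p = 0.0020), a call kept in 18 of 18 alternatives.

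Ccl3 and Ccl4, the macrophage inflammatory proteins MIP-1 alpha and beta, are products of activated myeloid and lymphoid cells and are neighbours on chromosome 11. Ccl3 read 10.64, 12.31 and 11.99 in YFP-, against 5.17 and 5.05 in UTR. Its CDE levels were 4.95, 5.85 and 6.71, and its DDC levels 6.57, 4.56 and 4.67. Most YFP+ arrays were thus at or below the array median for Ccl3, and CDE replicates 2 and 3 and DDC replicate 1 were above it. The difference of UTR from YFP- was the largest of the 10, at -6.54 ± 0.72 (SE, 92.8-fold lower, adjusted p = 0.00041).

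Ccl4 stood at 10.69, 12.13 and 11.47 in YFP-. UTR arrays were at 6.36 and 6.10, CDE arrays at 6.14, 6.33 and 7.00, and DDC arrays at 6.24, 6.15 and 6.14. The YFP+ arrays lay close together, apart from CDE replicate 3. Within YFP-, Ccl3 and Ccl4 were both highest on replicate 2, the array rich in lymphocyte, monocyte and neutrophil markers, and not on the macrophage-rich replicate 3. The difference of UTR from YFP- was -5.20 ± 0.38 (SE, 36.8-fold lower, adjusted p = 6.4e-05). CDE replicate 3 gave the highest YFP+ value of both Ccl3 and Ccl4, and it was also the YFP+ array with the highest mean of the 13 macrophage markers (6.91, against 5.53 to 6.40 on the other 7). The part of that macrophage RNA in these values was not tested. DDC replicate 1, where Ccl3 was at 6.57, had the lowest macrophage mean (5.53). Its monocyte and neutrophil mean was 5.02. CDE replicates 2 and 3 had 5.18 and 4.93, and the other YFP+ arrays 4.48 to 4.94. Of that list, S100a8 was at 7.40 on DDC replicate 1 and at 7.63 and 5.98 on CDE replicates 2 and 3. It was 4.21 to 5.64 on the other YFP+ arrays. S100a8 comes from a list of 12 markers, and not all of them ran this way. On DDC replicate 1, Ccr2, Itgam and Camp were at 4.34, 4.93 and 3.79. They were at 4.58, 6.48 and 3.91 on UTR replicate 2, where Ccl3 was at 5.05. The part of monocytes and neutrophils in the Ccl3 values was not tested.

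Cxcl10 is an interferon-induced ligand of Cxcr3 on T and NK cells. YFP- arrays read 10.11, 9.74 and 10.87. UTR arrays were at 7.93 and 6.33, CDE arrays at 7.72, 7.60 and 7.65 and DDC arrays at 8.32, 7.93 and 7.15. The highest was the macrophage-rich replicate 3, the groups did not overlap, and the YFP+ levels were above the array median on all 8 arrays. UTR was lower than YFP- by a log2 difference of -3.11 ± 0.50 (SE, 8.64-fold lower, adjusted p = 0.0026). The call was lost in the fit of 5 arrays alone (adjusted p = 0.066) and kept in the other 17 of 18 alternatives.

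Ccl5, or RANTES, is a product of T and NK cells and macrophages. It read 10.19, 13.54 and 10.33 in YFP-. UTR arrays were at 8.68 and 6.08, CDE arrays at 8.47, 8.24 and 9.15, and DDC arrays at 9.62, 9.48 and 8.12. The peak of 13.54 was on the YFP- array where all but 1 of the 14 T and NK markers were at their highest, and the highest DDC array was only a little below the lowest YFP- array. T and NK markers had a mean of 4.62 to 4.80 on all 8 YFP+ arrays, with 6 of 14 near the floor in each YFP+ group, while Ccl5 there spanned 6.08 to 9.62. UTR differed from YFP- by -3.98 ± 1.07 (SE, 15.7-fold lower, adjusted p = 0.030). Without YFP- replicate 2 the difference was -2.88 (adjusted p = 0.033), and without UTR replicate 2 it was -2.68 and no longer passed (adjusted p = 0.24), with the 1 UTR array left assumed to vary like the other groups. The call was also lost in the fit of 5 arrays alone (adjusted p = 0.20). With the mean of the 3 YFP+ groups the difference was -3.00 ± 0.79 (SE, adjusted p = 0.019), and without YFP- replicate 2 it was -1.90 (adjusted p = 0.051). Array weights ended that call too (adjusted p = 0.090).

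**Figure D2:**
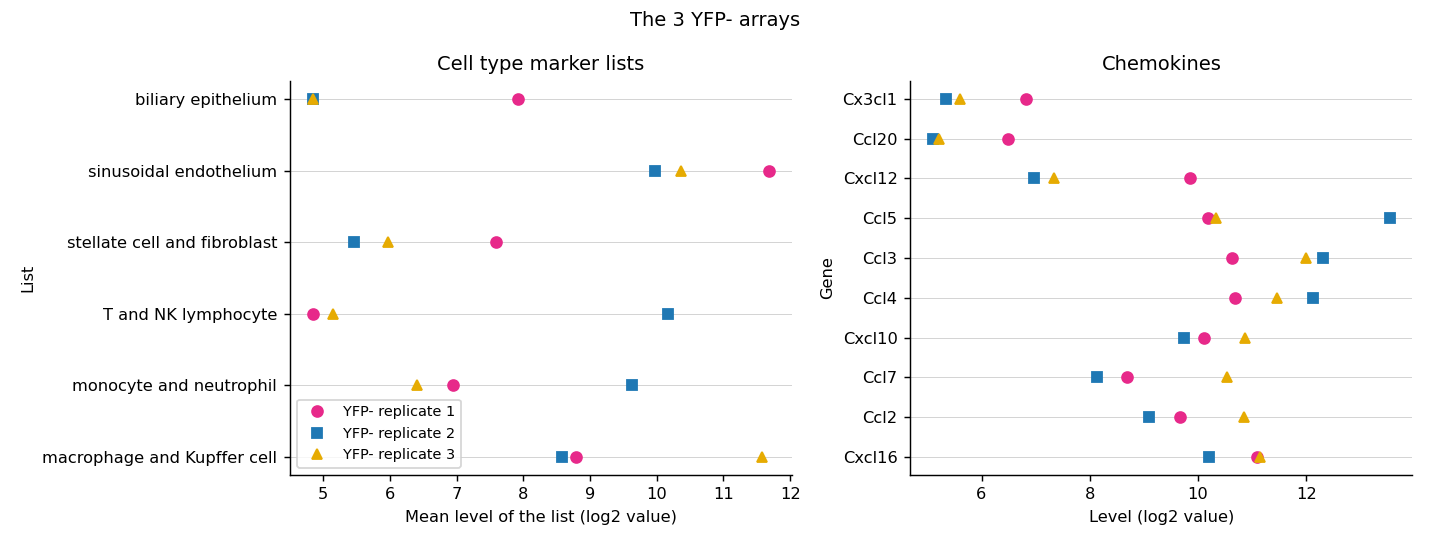
Mean log2 level of 6 cell type marker lists (left) and log2 level of the 10 chemokine genes (right) on the 3 YFP- arrays, one symbol per array. Replicate 1 led for biliary and stellate markers and for Cx3cl1, Ccl20 and Cxcl12, replicate 2 for lymphocyte, monocyte and neutrophil markers and for Ccl5, Ccl3 and Ccl4, and replicate 3 for macrophage markers and for Cxcl10, Ccl7 and Ccl2.

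The other 4 genes were not called in either direction between UTR and YFP-. Ccl2, the main ligand of Ccr2, was at 11.56 and 8.82 in UTR and at 9.67, 9.09 and 10.86 in YFP-. The UTR arrays lay above and below the entire YFP- range. The difference was 0.32 ± 0.73 (SE, adjusted p = 0.81), with a 95% interval from -1.32 to 1.96, so neither a marked excess nor a deficit was resolved. The mean of the 3 YFP+ groups exceeded YFP- by 1.03 ± 0.54 (SE, adjusted p = 0.18), and by 1.49 without UTR replicate 2, which passed (adjusted p = 0.019). Ccl2 thus overlapped between the fractions, and its lowest value on any of the 8 YFP+ arrays was 8.82. The highest YFP- value was on the macrophage-rich array, and the part of macrophage RNA in it was not tested.

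Ccl7, a second Ccr2 ligand whose gene lies beside Ccl2, read 7.82 and 6.28 in UTR, against 8.69, 8.13 and 10.54 in YFP-. Both UTR arrays were below all YFP- arrays, and the highest YFP- value was again on the macrophage-rich array. The difference was -2.07 ± 0.67 (SE, adjusted p = 0.062). It passed in 3 of 18 alternatives, among them the one without YFP- replicate 2 (-2.57, adjusted p = 0.023). For the mean of the 3 YFP+ groups it was -1.53 ± 0.50 (SE, adjusted p = 0.046), which held in 6 of 18 alternatives and was -0.82 without YFP- replicate 3 (adjusted p = 0.15).

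Cxcl16, a membrane-bound ligand of Cxcr6 on T and NKT cells, was the steadiest of the 10, with a range of 1.09 over all 11 arrays. UTR arrays were at 11.25 and 10.35 and YFP- arrays at 11.09, 10.21 and 11.15. CDE arrays read 10.80, 10.49 and 10.90, and DDC arrays 11.09, 11.30 and 11.00. The UTR and YFP- values interleaved, with a difference of -0.02 ± 0.33 (SE, 95% interval -0.76 to 0.72, adjusted p = 0.98). The interval leaves room for a change of up to about 0.76 in either direction.

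Cxcl12 is the constitutive ligand of Cxcr4, made by stromal and endothelial cells in most organs. Its YFP- levels were 9.86, 6.97 and 7.34, and its UTR levels 7.53 and 8.42. The single high value was on the YFP- array richest in stellate (mean 7.59, against 5.46 and 5.97) and sinusoidal endothelial markers (11.68, against 9.98 and 10.36). The part of these cells in the value was not tested. The difference of UTR from YFP- was -0.08 ± 0.72 (SE, adjusted p = 0.95), and 0.82 without that YFP- array. UTR replicate 2 was the highest of the 8 YFP+ arrays for Cxcl12, whereas it was the lowest of them for Ccl2, Ccl4, Ccl5, Ccl7, Ccl20, Cxcl10 and Cxcl16.

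**Figure D3:**
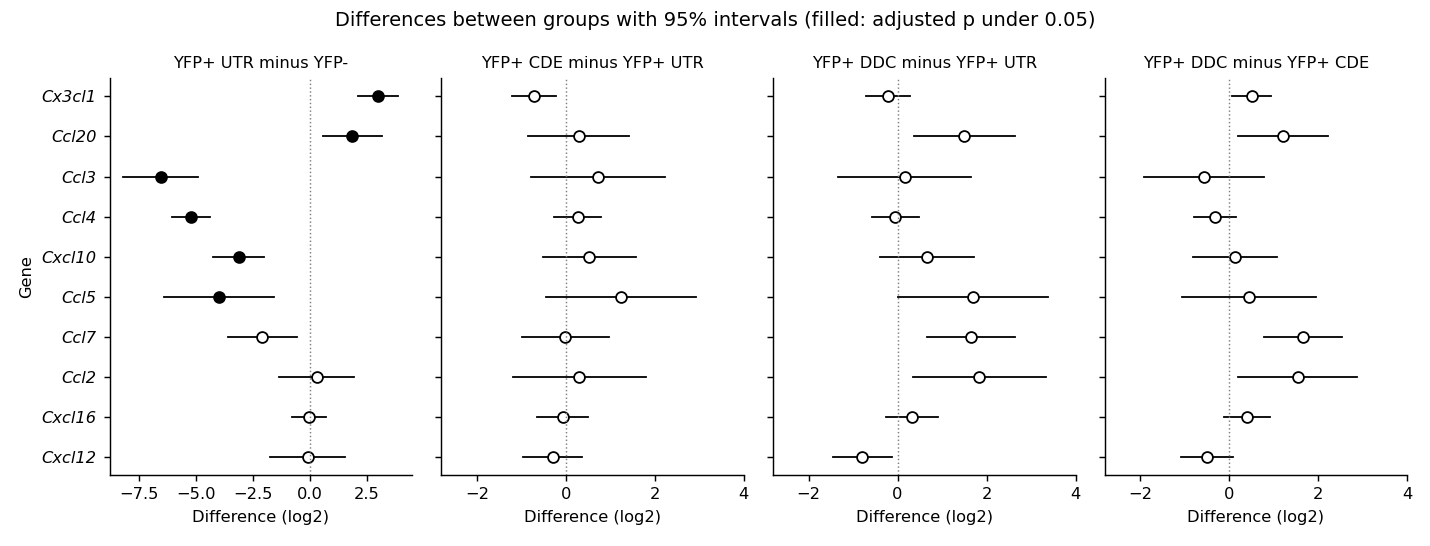
Log2 differences of the 10 chemokine genes with 95% intervals, for YFP+ UTR minus YFP- (fit of 11 arrays) and for the 3 comparisons among YFP+ groups (fit of 8 arrays). Filled points have an adjusted p under 0.05: 6 genes in the first panel and none in the other 3.

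The second question was what the diets did within the YFP+ lineage. CDE minus UTR gave no call among the 10 genes and none in all 23185 (0% of genes higher and 0% lower). At an unadjusted p under 0.05 there were 1492 genes, 1 of them a chemokine of the 10. That gene was Cx3cl1, where all 3 CDE arrays lay below both UTR arrays (10.5% of all genes), with a difference of -0.72 ± 0.22 (SE, adjusted p = 0.68). The other differences ranged from -0.29 for Cxcl12 to 1.24 for Ccl5, whose interval ran from -0.44 to 2.92. With all 11 arrays in the fit, no gene was called either.

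DDC minus UTR also gave 0 calls among the 10, against 0.0949% of all genes called higher and 0.0647% lower. At an unadjusted p under 0.05 there were 5 of the 10 (Ccl2, Ccl7, Ccl20, Ccl5 and Cxcl12) and 2417 of all genes. Ccl5 differed by 1.69 ± 0.73 (SE, adjusted p = 0.48) and Cxcl12 by -0.79 ± 0.29 (SE, adjusted p = 0.39). For both, the DDC and UTR arrays overlapped. The genes outside these 5 differed by -0.22 for Cx3cl1 to 0.67 for Cxcl10. DDC arrays lay above both UTR arrays for 3 of the 10 (Ccl2, Ccl7 and Ccl20), against 12.7% of all genes. Ccl2 reached 12.05, 11.95 and 12.10 after DDC, the closest agreement within any group for this gene, and 1.84 ± 0.65 (SE) above UTR (adjusted p = 0.38). Ccl7 was at 8.79, 8.29 and 9.02, a difference of 1.65 ± 0.43 (SE, adjusted p = 0.22). Ccl20 differed by 1.50 ± 0.49 (SE, adjusted p = 0.34). In each case the UTR arrays were far apart. Without UTR replicate 1, all 3 passed (0.168% of all genes called higher), at 3.21 for Ccl2 (adjusted p = 0.0084), 2.42 for Ccl7 (adjusted p = 0.046) and 2.53 for Ccl20 (adjusted p = 0.0084). That fit leaves UTR with 1 array, which is assumed to vary like the CDE and DDC arrays. Without UTR replicate 2, under the same assumption, none did, and the differences were 0.47 for Ccl2, 0.88 for Ccl7 and 0.48 for Ccl20. With all 11 arrays in the fit none of the 3 passed (adjusted p = 1, 1 and 0.97).

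DDC minus CDE does not rest on the UTR arrays except through the shared spread. In the fit of 8 arrays none of the 10 was called (0.418% of all genes higher and 0.742% lower), while 4 of 10 and 3555 of all genes had an unadjusted p under 0.05. All DDC arrays lay above all CDE arrays for 5 of the 10 (Ccl2, Ccl7, Ccl20, Cx3cl1 and Cxcl16), against 9.64% of all genes. They lay below for 1, Cxcl12, against 10.6%.

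The largest of these differences was that of Ccl7, at 1.66 ± 0.38 (SE, 3.17-fold, adjusted p = 0.090), where CDE arrays read 7.21, 6.62 and 7.27. Ccl2 followed at 1.54 ± 0.58 (SE, 2.90-fold, adjusted p = 0.27), from CDE levels of 10.70, 10.01 and 10.78. Ccl20 was 1.21 ± 0.44 (SE, 2.32-fold, adjusted p = 0.24) higher. The DDC arrays of these 3 genes were close together and all above the CDE arrays. In a fit of the 6 CDE and DDC arrays alone, an alternative chosen after the data were seen, the same differences passed for Ccl2, Ccl7 and Ccl20 (adjusted p = 0.030, 0.037 and 0.030, with 0.367% of all genes called higher). With all 11 arrays they did not (adjusted p = 0.62, 0.52 and 0.62). Cx3cl1 was 0.51 ± 0.19 (SE) higher in DDC (adjusted p = 0.27), Cxcl16 0.39 ± 0.22 higher (adjusted p = 0.45) and Cxcl12 -0.50 ± 0.26 in the same direction of subtraction (adjusted p = 0.40).

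The 4 genes that marked YFP- cells showed no such order between the diets. Differences of DDC from CDE were -0.57 ± 0.58 (SE) for Ccl3, -0.31 ± 0.21 for Ccl4, 0.45 ± 0.66 for Ccl5 and 0.14 ± 0.41 for Cxcl10, and the arrays overlapped in each. Macrophage markers had a mean of 5.53 to 5.81 on the DDC arrays, below the 5.87 to 6.91 of CDE and the 6.29 and 6.40 of UTR. All 13 were lower in DDC than in CDE by group mean, none past the threshold. Monocyte and neutrophil markers had means of 4.58 to 5.02 on DDC arrays and 4.48 to 5.18 on CDE arrays.

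Several of these chemokines were much higher on one UTR array than on the other. Replicate 1 exceeded replicate 2 by 2.74 for Ccl2, 2.59 for Ccl5, 2.05 for Ccl20, 1.60 for Cxcl10 and 1.54 for Ccl7. The gap was 0.90 for Cxcl16, 0.29 for Cx3cl1, 0.26 for Ccl4 and 0.12 for Ccl3, and -0.90 for Cxcl12. Thus 5 of 10 had a gap over 1, against 0.505% of all genes, and 0 of 10 a gap under -1, against 1.01%. Of all genes, 4 had a gap over 2, and 3 of these were Ccl2, Ccl5 and Ccl20 (the other was Sncg). On the opposite side, 34 genes had a gap under -2, none of them among the 10. Macrophage means were 6.40 and 6.29, T and NK means 4.72 and 4.77 and biliary means 10.25 and 10.19, and no marker of the 10 cell type lists was over 1 higher in replicate 1. Sinusoidal endothelial markers were higher in replicate 2, with means of 5.35 and 5.82. There were 4 markers over 1 higher in replicate 2, which were Itgam (myeloid), Cdh5 (endothelial), Ass1 (hepatocyte) and Hbb-bs (erythroid). Their part in the gaps was not tested. Of 20 measured NF-kB inducers and targets, 1 had a gap over 1 (Vcam1, 1.14) and 1 a gap under -1 (Tnfrsf1b, -1.10). The median gap of these 20 was 0.27, against -0.0001 over all genes. Of 26 other chemokines, 3 had a gap over 1 (Ccl9, Ccl19 and Cxcl2) and 1 a gap under -1 (Cxcl5, -1.35). Their median gap was -0.004. A test of 2 arrays against each other is not possible, and the cause was not tested.

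**Figure D4:**
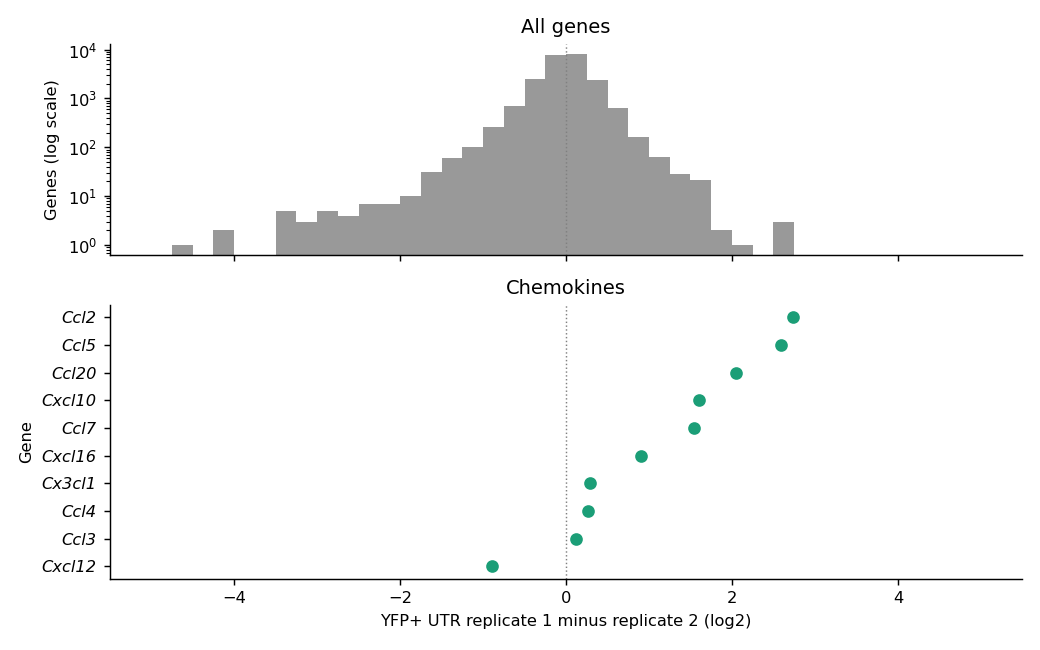
Difference between the 2 YFP+ UTR arrays (replicate 1 minus replicate 2, log2) as a histogram over all 23185 genes, the 10 included, with a log-scaled count axis (top), and for the 10 chemokine genes (bottom). Ccl2, Ccl5 and Ccl20 lie beyond 2, where the histogram holds 4 genes, and none of the 10 is among the 34 genes beyond -2.

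Receptors are given for the cells that could respond to the 10 ligands. Of 22 measured chemokine receptors, 6 were lower in YFP+ UTR than in YFP- past the threshold and 0 higher, with a median difference of -1.32 against -0.01 over all genes. Ccr2, the receptor of Ccl2 and Ccl7, was at 4.50 ± 0.11 (SD, n = 2) in UTR, close to the floor, and at 8.67, 10.72 and 7.60 in YFP-. The difference was -4.50 ± 0.73 (SE, adjusted p = 0.0028). Its highest value was on the array rich in monocyte and neutrophil markers, a list that holds Ccr2 itself. Cx3cr1, the receptor of Cx3cl1, was 7.31 ± 0.11 (SD, n = 2) in UTR and 8.99, 9.96 and 8.81 in YFP-, a difference of -1.94 ± 0.31 (SE, adjusted p = 0.0024). Ligand and receptor of this pair were thus called in opposite directions. Ccr1, which binds Ccl3, Ccl5 and Ccl7, differed by -1.37 ± 0.27 (SE, adjusted p = 0.0069).

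For the receptors of lymphocytes the YFP- arrays split. Cxcr6, the receptor of Cxcl16, read 5.04, 11.05 and 5.83 in YFP-. Cxcr3, the receptor of Cxcl10, read 5.25, 9.45 and 6.61, and Ccr6, the receptor of Ccl20, 4.72, 7.00 and 4.52. Each was highest on the lymphocyte-rich array, and none was called (adjusted p = 0.37, 0.25 and 0.34). Cxcr4, the receptor of Cxcl12, was also highest there, at 10.79, with a difference of -2.57 ± 0.84 (SE, adjusted p = 0.062). Ackr3, a scavenger of Cxcl12, had UTR levels of 6.79 and 7.75 and differed little from YFP- (0.14 ± 0.75, SE, adjusted p = 0.92). It was lower after DDC, at 5.84 ± 0.12 (SD, n = 3), than in UTR by group mean, with a difference of -1.43 ± 0.42 (SE, adjusted p = 0.28).

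**Figure D5:**
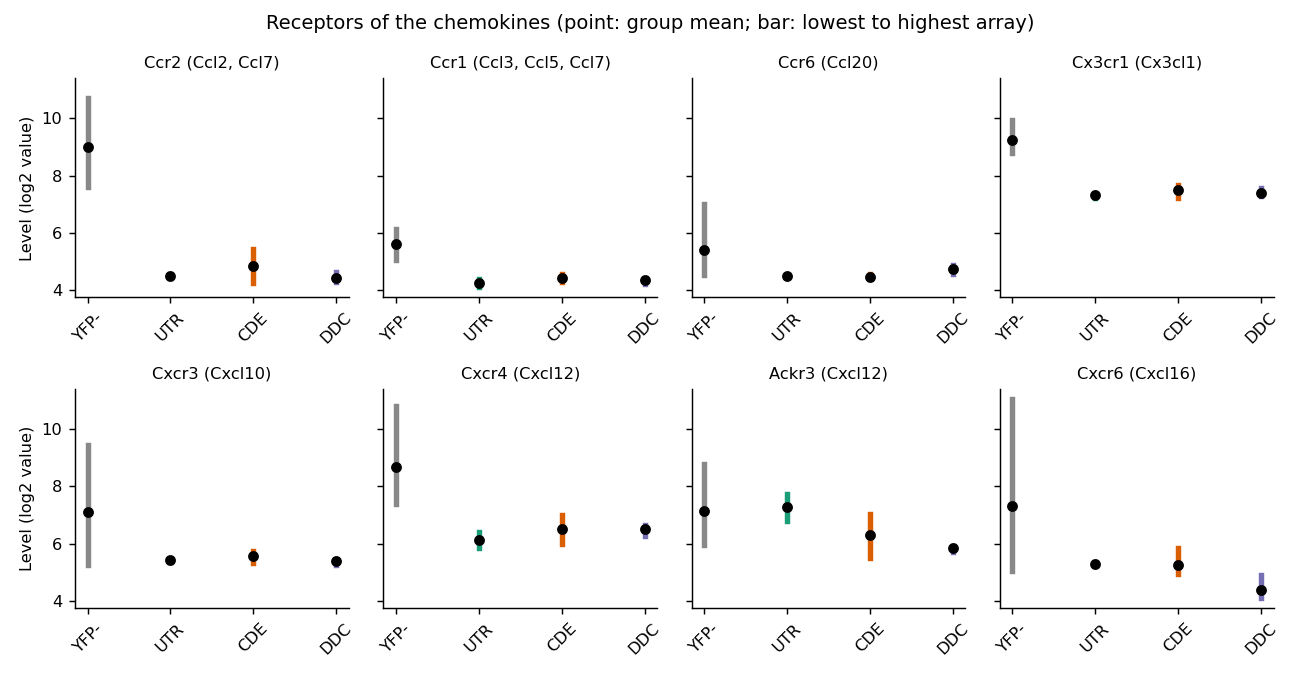
Log2 levels of 8 chemokine receptors, with the ligands of this group they bind in brackets, as group mean (point) and lowest to highest array (bar). Ccr1, Ccr2, Cx3cr1 and Cxcr4 were higher on every YFP- array than on any YFP+ array, as were 11.7% of all genes. Cxcr3, Cxcr4 and Cxcr6 spread widely within YFP-.

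Genes that cleave or present chemokines were divided. Of 12 measured, 3 were higher and 3 lower in UTR than in YFP-. Sdc4 and Sdc1, heparan sulphate proteoglycans of epithelial surfaces, were higher by 2.23 ± 0.39 and 1.96 ± 0.37 (SE, adjusted p = 0.0039 and 0.0055). Adam17, a sheddase of Cx3cl1, was lower by a log2 difference of -1.43 ± 0.26 (SE, adjusted p = 0.0048), and Dpp4, which trims Cxcl10 and Cxcl12, of -1.76 ± 0.35 (SE, adjusted p = 0.0074). None of the 12 was called in the comparisons among YFP+ groups.

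Among 26 other chemokines, 2 were higher and 8 lower in UTR than in YFP-, with a median difference of -1.38. Ccl6 and Cxcl9 were lower by log2 differences of -4.50 ± 0.74 and -4.13 ± 0.28 (SE, adjusted p = 0.0028 and 4.9e-05), and Ccl12, another Ccr2 ligand, was at 3.80 in UTR, under the floor, against 8.73 in YFP-. Cxcl2 was also lower in UTR than in YFP-, at -4.47 ± 0.55 (SE, adjusted p = 0.00067). Its means were 6.61 in UTR, 10.34 in DDC and 11.07 in YFP-. Cxcl5, a neutrophil chemokine of epithelium, was the furthest above YFP-, at 3.78 ± 0.42 (SE, adjusted p = 0.00044). In DDC minus CDE, 5 of the 26 were called higher, against 0.418% of all genes. The largest were chemokines that attract neutrophils, with Cxcl2 at 3.16 ± 0.32, Cxcl3 at 3.04 ± 0.34, Cxcl5 at 2.36 ± 0.31 and Cxcl1 at 1.34 ± 0.18 (SE, adjusted p = 0.011, 0.014, 0.020 and 0.022). The fifth was Cxcl17, a mucosal chemokine known for drawing monocytes, macrophages and dendritic cells, at 0.89 ± 0.13 (SE, adjusted p = 0.028). Cxcl17 was also higher in UTR than in YFP-, by 0.95 ± 0.18 (SE, adjusted p = 0.0058). Whether the diet differences of these 5 exceed those of Ccl2, Ccl7 and Ccl20 was not tested. With all 11 arrays in the fit, only 1 of all 23185 genes was called in DDC minus CDE.

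Of 20 measured NF-kB inducers and targets, 6 were lower in UTR than in YFP- and 0 higher. Il1a and Il1b, inducers of chemokines in neighbouring cells, differed by -5.95 ± 0.48 and -4.94 ± 0.73 (SE, adjusted p = 0.00010 and 0.0017). Between DDC and CDE, 2 of the 20 were called higher. Tnf, the cytokine that induces Ccl2 and Ccl20, was 1.40 ± 0.25 higher (SE, adjusted p = 0.046), and Icam1, the adhesion receptor of leukocytes, 0.92 ± 0.16 higher (SE, adjusted p = 0.040). With arrays shifted to 1 median, 1 of the 20 was called. Of 18 measured interferon inducers and targets, 5 were lower in UTR than in YFP-, led by Irf8, a myeloid and lymphoid factor, at -4.14 ± 0.42 (SE, adjusted p = 0.00026). None was called between diets. Ifit1 differed by -1.12 ± 0.26 (SE) in DDC minus CDE (adjusted p = 0.094).

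Several of the 10 genes have chemokine genes beside them. Ccl2 and Ccl7 are neighbours on chromosome 11, and both were highest among YFP+ groups after DDC. The next gene, Ccl11, was close to the floor, with means of 4.42 to 4.63 in the YFP+ groups and 5.12 in YFP-. Ccl3 lies between Ccl6 and Ccl4, and all 3 were called lower in UTR. Ccl9, next to Ccl5, was called lower as well, at -3.10 ± 0.57 (SE, adjusted p = 0.0049). Cx3cl1 on chromosome 8 sits between Ccl22 and Ccl17, which went the other way. Ccl22 was 4.41 in UTR and 6.04 in YFP- and Ccl17 4.54 and 6.52 (means). Neither was called in UTR against YFP- (adjusted p = 0.12 and 0.17). For the mean of the 3 YFP+ groups, Ccl22 was called lower, at -1.47 ± 0.49 (SE, adjusted p = 0.048). Ccl17 was not, at -1.95 ± 0.67 (SE, adjusted p = 0.056).

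Genes whose levels ran most like each chemokine over the 11 arrays are given as a description only, since the YFP+ and YFP- arrays form separate clusters and share a great many genes. For Cx3cl1 they were Myh10, F3 and Glis2 (Pearson r = 0.989, 0.987 and 0.986), and for Ccl20 Ltbp2, Madcam1 and Cchcr1 (0.987, 0.972 and 0.962). Ccl3 ran with Tmed5, Lcp2 and Psap (0.987, 0.986 and 0.985), Ccl4 with Emp3, Ms4a6b and Prkcb (0.998, 0.995 and 0.995) and Cxcl10 with Ccdc88a, Sh3glb1 and Cd33 (0.964, 0.960 and 0.958). Ccl5 ran with Doxl2, Arf4 and Ccl9 (0.955, 0.936 and 0.934), and Ccl7 with Slc35d2, Ncaph2 and Vmn1r39 (0.927, 0.909 and 0.909). For Ccl2 the values were lower after the first gene, with Prrt3, Basp1 and Adgrl3 (0.947, 0.887 and 0.887). For Cxcl12 they were Armcx1, Vstm4 and Abat (0.948, 0.946 and 0.941). Cxcl16 varied too little to be ranked.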

How the data were processed

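RNA of sorted cells was hybridised to 1-colour Affymetrix MoGene 2.0 ST arrays. The values used are the log2 values that the authors deposited, 1 per feature and array (11 arrays). The background correction, normalization and base of the logarithm were not given in the sources used here, and base 2 was inferred from the range (2.55 to 13.57). Of 25206 features, the platform annotation pairs 23185 with a single gene symbol, and these were tested. The number of arrays limits the precision.

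Tests used lmFit and eBayes of limma 3.58.1 (R 4.3.3), two-sided, with Benjamini-Hochberg adjustment over all 23185 genes at 0.05. Comparisons with YFP- used all 11 arrays (7 residual degrees of freedom). Comparisons among YFP+ groups used the 8 YFP+ arrays (5), because YFP- arrays varied more (median SD of a gene 0.26, against 0.16). In UTR against YFP-, the less variable CDE and DDC arrays enter the shared spread, so its SE may be too small. That comparison called 4373 genes, and 931 in a fit of its 5 arrays alone, which has fewer degrees of freedom. The fit was tested on simulated data. Errors are SE of a difference or SD of a group mean. A group mean below 4.33 counted as near the floor. Alternatives were quantile or median scaling, a filter on low values, an intensity trend, array weights, the replicate number as a block, other sets of arrays, each array left out and a floor at the 10th percentile.

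All 10 members were fitted in every comparison, and the text gives only part of their values for CDE minus UTR and DDC minus UTR. Up to 4 called (or up to 2 uncalled) genes of each pathway list were picked per comparison by the size of the difference. The text names part of these and some others. It also gives the receptors and the 3 genes most like each member with a range over 2. The members, lists and main fits were chosen with earlier results of these data known. RefSeq tables of GRCm38.p6 gave gene order and promoter sequence.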

Additional observations from a re-analysis of the deposited data

How the results depend on the processing

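The differences of the 10 chemokines were recomputed in 820 alternatives, of which 771 kept the call or its absence and 0 turned the sign of a called difference. In 27, an uncalled difference changed sign, 24 of them with an array left out. Called members higher in UTR than in YFP- numbered 2, but 1 with quantile scaling, median scaling, array weights or the replicate block, 0 in the 5 arrays alone and 1 to 2 with an array left out. Those lower numbered 4, and 2 in the 5 arrays alone. For the mean of the YFP+ groups 5 were lower, and 3 with array weights. Members higher in DDC numbered 0 against UTR and 0 against CDE, and 0 to 3 in both with an array left out. Against CDE the 6 arrays alone gave 3. For DDC against CDE, leaving out either UTR array is the same fit as the 6 arrays alone. These alternatives are therefore not separate results. The cause of these changes was not tested.

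Over all genes, UTR against YFP- gave 4373 calls, 931 in 5 arrays and 2306 to 5817 with an array left out. The YFP+ mean gave 7083, and 4179 with array weights. CDE against UTR gave 0, 1 with median scaling, an intensity trend or array weights, and 0 to 46 with an array left out. DDC against UTR gave 37, 0 in the 11-array fit and 0 to 103 with an array left out. DDC against CDE gave 269, 1 in the 11-array fit, 211 in the 6 arrays alone and 16 to 211 with an array left out. Under a replicate block DDC against UTR gave 0 genes and DDC against CDE 61, Ccl5 and Ccl20 missed the threshold in UTR against YFP- (adjusted p = 0.054 and 0.057) and Ccl7 passed it (adjusted p = 0.046). The numbers were not taken to pair the arrays, since deviations of same-numbered arrays correlated at -0.07 to 0.13 and an array correlated best with its own number in 11 of 30 checks. Under quantile scaling 1 NF-kB gene was called higher for the YFP+ mean, against 0. No group mean of the 10 genes was under the floor at either percentile.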
